A study of Homo sapiens with 6 samples.

Results

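The mitochondrial genome of human cells is a small circular DNA, and this report gives the RNA levels of all of its annotated genes in RPE1 cells with and without depletion of OFD1. The genes are the rows of the deposited expression table placed on chromosome MT, 37 of the 67130 genes listed, and they comprise 13 mRNAs, 2 rRNAs and 22 tRNAs. The RPE1 line derives from human retinal pigment epithelium and was immortalized with hTERT, and it is labelled here as hTERT-RPE1-TOShOFD1 with genotype WT. The cells carried a short hairpin RNA (shRNA) against OFD1, a protein of centriolar satellites and the base of the cilium, under a Tet-On promoter that doxycycline (DOX) switches on. The labels call 3 samples control and give no DOX dose for them. In 3 samples the cells received 200 ng/mL DOX (OFD1-depleted), with 72 h in the labels of both groups. By the methods, lentivirus-infected cells were selected with puromycin or blasticidin, and whether the line is 1 clone or carries the listed hairpin sequence was not stated. No sample received DOX without the hairpin, so a response to DOX and a response to loss of OFD1 cannot be told apart. The study calls its expression columns biological replicates, but neither it nor the labels say that they were separate cultures, so p-values measure the spread between these samples only.

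Both strands of mitochondrial DNA are transcribed from end to end into long precursors by the single-subunit RNA polymerase POLRMT, with TFAM and TFB2M. Most mRNAs and rRNAs are flanked by tRNAs, and excision of the tRNAs releases them, so genes copied from the same strand start as one transcript and reach different levels through later processing and decay. The mRNAs encode core subunits of respiratory complexes I, III and IV and of ATP synthase (complex V), the rRNAs form the mitochondrial ribosome, and the tRNAs serve that ribosome. All other subunits, factors and ribosomal proteins come from nuclear genes. Doxycycline is a tetracycline, a class of antibiotic that binds bacterial ribosomes and is known to inhibit the mitochondrial ribosome as well.

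On the reference (GRCh38, 16569 bases), 12 mRNAs, both rRNAs and 14 tRNAs lie on the + strand, while MT-ND6 and 8 tRNAs lie on the - strand. The genes are packed so closely that some share bases, which matters because a read in a shared stretch can be given to either gene. MT-ATP8 and MT-ATP6 share 46 bases and MT-ND4L and MT-ND4 share 7 bases. Both stretches are shown on the + strand with 12 bases on either side and the shared bases in capitals.
MT-ATP8 and MT-ATP6, chrM:8515-8584: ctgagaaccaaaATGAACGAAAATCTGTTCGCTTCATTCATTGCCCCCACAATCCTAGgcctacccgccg
MT-ND4L and MT-ND4, chrM:10748-10778: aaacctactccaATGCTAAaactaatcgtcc

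The tRNA genes on which the later comparisons turn are shown next, because they are later compared with mRNAs near them. They are printed 5′ to 3′ on the strand of the gene as DNA letters, with the anticodon in capitals. A first set of 5, all on the + strand, lies before or after MT-ND3 (MT-TG and MT-TR) or between MT-ND4 and MT-ND5 (MT-TH, MT-TS2 and MT-TL2).
MT-TG, chrM:9991-10058: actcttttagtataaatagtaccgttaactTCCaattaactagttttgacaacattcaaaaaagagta
MT-TR, chrM:10405-10469: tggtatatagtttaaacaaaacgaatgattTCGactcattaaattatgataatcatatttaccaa
MT-TH, chrM:12138-12206: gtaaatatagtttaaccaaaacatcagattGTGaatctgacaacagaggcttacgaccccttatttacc
MT-TS2, chrM:12207-12265: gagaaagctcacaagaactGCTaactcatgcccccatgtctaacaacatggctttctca
MT-TL2, chrM:12266-12336: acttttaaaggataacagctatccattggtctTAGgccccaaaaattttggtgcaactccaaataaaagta

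A second set of 4, all on the - strand, lies between MT-ND2 and MT-CO1.
MT-TA, chrM:5587-5655: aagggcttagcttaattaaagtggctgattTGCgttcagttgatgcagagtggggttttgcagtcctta
MT-TN, chrM:5657-5729: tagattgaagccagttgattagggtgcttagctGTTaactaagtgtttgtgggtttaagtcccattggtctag
MT-TC, chrM:5761-5826: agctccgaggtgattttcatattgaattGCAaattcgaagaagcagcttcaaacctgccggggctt
MT-TY, chrM:5826-5891: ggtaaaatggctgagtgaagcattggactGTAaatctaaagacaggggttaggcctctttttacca

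RNA was sequenced from paired ends, and the deposited value of a gene is FPKM, the fragments aligned to it divided by its length and by the mapped fragments of the sample. FPKM is therefore a share of each library, and more mitochondrial RNA per cell cannot be told apart from less of all other RNA. If the step between the low values of single-exon nuclear genes is 1 fragment, depth was about 37500000 to 44100000 fragments per sample, which puts an estimated 13.2 to 37.6 fragments behind each value of MT-TW, the lowest member, and 89.5 to 224 behind those of MT-TH. OFD1 itself had 3.34, 3.62 and 3.44 FPKM in control replicates 1, 2 and 3 and 0.795, 0.763 and 1.43 FPKM in OFD1-depleted replicates 1, 2 and 3, so its log2 fold change was -1.75 with a standard error (SE) of 0.255 (limma, adjusted p = 0.00085). Of the markers of the line, VIM lay between 3588 and 4458 FPKM, KRT8 and KRT18 were above 111 FPKM in every sample, KRT19 was at or below 0.211 FPKM and CDH2 fell (-0.47). The defining genes of retinal pigment epithelium RPE65, RLBP1 and TTR were at or below 0.209 FPKM and PMEL at or below 0.627 FPKM, while MITF lay between 5.06 and 7.75 FPKM and OTX2 between 1.56 and 2.10 FPKM, and BEST1 reached 4.33 FPKM in OFD1-depleted replicate 2 and at most 0.0475 FPKM elsewhere. The leukocyte marker PTPRC and the endothelial marker PECAM1 were at or below 0.187 FPKM.

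The mitochondrial genes took 13.1%, 8.66% and 13.8% of the summed FPKM in control replicates 1, 2 and 3. In OFD1-depleted replicates 1, 2 and 3 they took 15.6%, 16.3% and 19.3%. The groups did not overlap, and control replicate 2 stood apart as the lowest sample. It had between 39.6% (MT-ND4L) and 90.9% (MT-TT) of the mean of control replicates 1 and 3 for every one of the 37 genes, so the medians by class and the count of calls are also given without it. The difference between group means of the share was 5.23 percentage points with all samples and 3.64 points without control replicate 2.

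**Figure D1:**
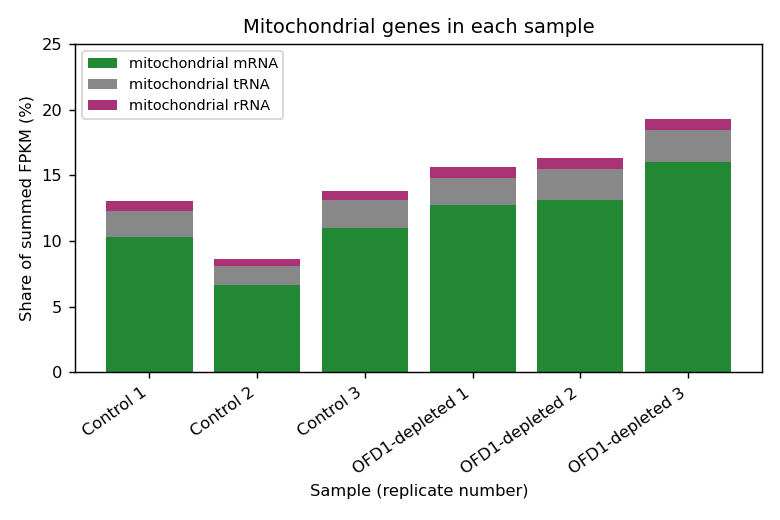
Stacked bars give the percentage of each sample's summed FPKM in mitochondrial mRNAs, tRNAs and rRNAs, with 1 bar for each of the 6 samples. The totals run from 8.66% in control replicate 2 to 19.3% in OFD1-depleted replicate 3, and mRNAs make up most of every bar.

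All 37 mitochondrial genes passed the filter on low values (a mean of 1 FPKM or more over the samples), and they were tested among all 12025 genes that passed it, on the log2(FPKM + 0.1) scale. In all, 11 of the 37 rose in OFD1-depleted cells and 0 fell at an adjusted p under 0.05 (limma with Benjamini-Hochberg adjustment over all genes tested), where 5.07% of all genes tested rose, 11.9% fell and 17.0% changed in either direction. The 11 were 7 mRNAs (MT-CO2, MT-CYB, MT-ND2, MT-ND3, MT-ATP6, MT-CO3 and MT-ATP8) and 4 tRNAs (MT-TS1, MT-TD, MT-TE and MT-TP). At an unadjusted p under 0.05 (limma), 23 of the 37 were higher and 0 were lower. Every called gene also has an unadjusted p under 0.05, so at least 5.07% of all genes tested were higher and 11.9% lower at this threshold. The full shares were not counted, here or for the unadjusted counts given below. All OFD1-depleted values lay above all control values in 20 of the 37 genes, comprising 12 mRNAs, 2 rRNAs and 6 tRNAs, beside 13.8% of all genes tested. The median log2 fold change was 0.78 over the mRNAs, 0.46 over the rRNAs and 0.31 over the tRNAs, against -0.03 over all genes tested. Without control replicate 2 these medians were 0.56, 0.34 and 0.12, and 8 genes rose. Without OFD1-depleted replicate 3 only 3 rose (MT-TS1, MT-ND3 and MT-TP), and these 3 also rose in each of the other fits that left out 1 sample. Leaving out control replicate 1 or control replicate 3 lost the calls of MT-CO2, MT-CO3 and MT-TD, leaving out control replicate 2 lost those of MT-CYB, MT-TD and MT-TE, and leaving out OFD1-depleted replicate 1 lost those of MT-ATP8 and MT-CYB. With no filter on low genes, 28501 genes entered the test and 0 of the 37 passed it, with a lowest adjusted p of 0.0564 and 10 genes higher at an unadjusted p under 0.05 (limma).

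**Figure D2:**
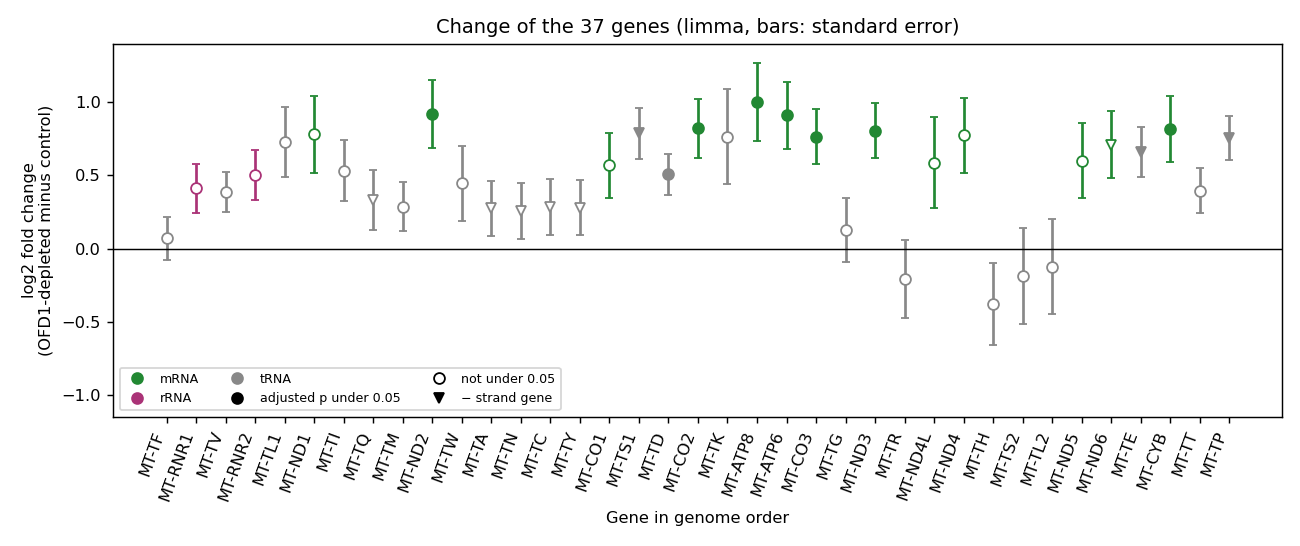
Points give the limma log2 fold change (OFD1-depleted minus control) of the 37 genes in genome order, with bars of 1 standard error, filled where the adjusted p was under 0.05 and pointing down for - strand genes. The 13 mRNAs lie between 0.57 and 1.00, while 4 tRNAs between MT-ND3 and MT-ND5 lie below 0.

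Complex V is the ATP synthase, and both of its mitochondrial genes rose. MT-ATP8 (MT from 8366 to 8572) had 1857, 967.4 and 2170 FPKM in control replicates 1, 2 and 3 and 2904, 3132 and 3452 FPKM in OFD1-depleted replicates 1, 2 and 3. MT-ATP6 (MT from 8527 to 9207), which encodes a subunit of the proton channel, had 3557, 2232 and 4003 FPKM in control and 5286, 6065 and 6592 FPKM in OFD1-depleted samples. In both genes every OFD1-depleted value lay above every control value, with control replicate 2 lowest. The log2 fold change was 1.00 for MT-ATP8 (SE 0.264, limma adjusted p = 0.0241) and 0.91 for MT-ATP6 (SE 0.230, limma adjusted p = 0.0196). These genes lie on one mRNA in cells, and the level of MT-ATP8 was 43.3% to 54.2% of that of MT-ATP6 in control and 51.6% to 54.9% in OFD1-depleted samples, so the ratios of the groups overlapped. How reads in the 46 shared bases were divided was not stated.

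Complex IV, cytochrome c oxidase, held the most abundant mRNAs of the cells, and 2 of its 3 mitochondrial genes rose. MT-CO2 (MT from 7586 to 8269), whose product receives electrons from cytochrome c, had 7293, 5788 and 8007 FPKM in control and 11237, 12485 and 13327 FPKM in OFD1-depleted samples, a log2 fold change of 0.82 (SE 0.201, limma adjusted p = 0.0170). MT-CO3 (MT from 9207 to 9990) had 4689, 3698 and 4910 FPKM in control and 6727, 7793 and 7982 FPKM in OFD1-depleted samples, a log2 fold change of 0.77 (SE 0.189, limma adjusted p = 0.0178). The values of neither gene overlapped between groups. MT-CO1 (MT from 5904 to 7445), the catalytic subunit, had 8828, 6065 and 9490 FPKM in control and 10947, 11401 and 13307 FPKM in OFD1-depleted samples. Its groups did not overlap either, but the log2 fold change of 0.57 did not pass the test (SE 0.221, limma adjusted p = 0.104).

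The order of MT-CO1 and MT-CO2 differed between groups. MT-CO1 had the highest FPKM of all genes in each of the 3 control samples, with MT-CO2 second, and in each of the 3 OFD1-depleted samples MT-CO2 was highest and MT-CO1 second. The ratio of MT-CO2 to MT-CO1 was 0.826, 0.954 and 0.844 in control replicates 1, 2 and 3. It was 1.03, 1.10 and 1.00 in OFD1-depleted replicates 1, 2 and 3, above every control value. Control replicate 2, the sample with the lowest share of mitochondrial RNA, had the control ratio nearest to the OFD1-depleted samples. This ratio was chosen after its values were seen and was not tested. Between 4 and 7 of the 10 highest genes of each sample were mitochondrial, so a scaling that fixes values by rank (quantile normalization) hides part of their change by construction. It gave MT-CO1 a log2 fold change of -0.13 and lowered the mRNA median to 0.43.

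**Figure D3:**
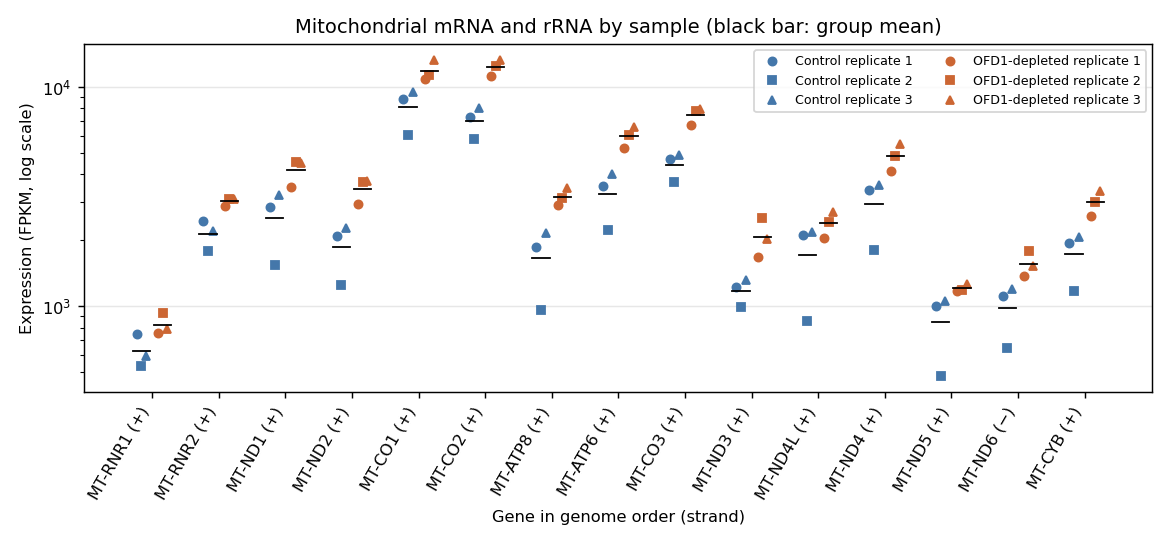
FPKM of the 2 rRNAs and 13 mRNAs is drawn for each sample on a log scale in genome order, with strand in brackets, symbols for the replicate number and black bars for group means. OFD1-depleted samples lie above control samples in every gene except MT-ND4L, where the groups overlap, and control replicate 2 is the lowest sample throughout.

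Complex III, which passes electrons to cytochrome c, has a single mitochondrial gene, MT-CYB for cytochrome b (MT from 14747 to 15887). It had 1950, 1177 and 2077 FPKM in control and 2591, 3008 and 3357 FPKM in OFD1-depleted samples, again without overlap. The log2 fold change was 0.82 (SE 0.224, limma adjusted p = 0.0290).

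Complex I, NADH dehydrogenase, has 7 mitochondrial subunits, and 2 of them rose. MT-ND2 (MT from 4470 to 5511) had 2094, 1247 and 2267 FPKM in control and 2917, 3688 and 3732 FPKM in OFD1-depleted samples, a log2 fold change of 0.92 (SE 0.231, limma adjusted p = 0.0194). MT-ND3 (MT from 10059 to 10404) had 1221, 995.5 and 1325 FPKM in control and 1685, 2529 and 2021 FPKM in OFD1-depleted samples, a log2 fold change of 0.81 (SE 0.189, limma adjusted p = 0.0140). In MT-ND3 the highest sample was OFD1-depleted replicate 2 rather than 3, and the groups of both genes were separate. The other 5 subunits had log2 fold changes from 0.59 to 0.78 that did not pass the test.

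Among these 5, MT-ND1 (MT from 3307 to 4262) had 2849, 1540 and 3218 FPKM in control and 3502, 4550 and 4502 FPKM in OFD1-depleted samples, and differed by 0.78 in log2 units (limma adjusted p = 0.0637). MT-ND4 (MT from 10760 to 12137) had 3403, 1813 and 3576 FPKM in control and 4153, 4832 and 5495 FPKM in OFD1-depleted samples (0.77, limma adjusted p = 0.0611). Both were separate between groups, and control replicate 2 lay far below its fellows, which widened the spread. MT-ND5 (MT from 12337 to 14148) had 1001, 480.8 and 1053 FPKM in control and 1174, 1187 and 1271 FPKM in OFD1-depleted samples (0.60, limma adjusted p = 0.139). MT-ND4L (MT from 10470 to 10766) had 2115, 853.1 and 2192 FPKM in control and 2050, 2424 and 2696 FPKM in OFD1-depleted samples (0.59, limma adjusted p = 0.232). MT-ND4L was the only mRNA whose groups overlapped, because OFD1-depleted replicate 1 lay below control replicates 1 and 3. MT-ND4L and MT-ND4 are parts of one mRNA, and the ratio of their levels was 62.1%, 47.1% and 61.3% in control and 49.4%, 50.2% and 49.1% in OFD1-depleted samples. The groups overlapped in this ratio, since control replicate 2 was the lowest of all samples.

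MT-ND6 (MT from 14149 to 14673) is the one mRNA on the - strand and lies next to MT-ND5 on the other strand. It had 1117, 645.6 and 1198 FPKM in control and 1382, 1795 and 1527 FPKM in OFD1-depleted samples, without overlap, and its log2 fold change of 0.71 did not pass the test (SE 0.228, limma adjusted p = 0.0547). The ratio of MT-ND6 to MT-ND5, which compares the strands within a sample, was 1.12, 1.34 and 1.14 in control and 1.18, 1.51 and 1.20 in OFD1-depleted samples, and the groups overlapped. The library kit named in the methods keeps the strand, but the labels name a second kit that does not, and the strand setting of the counting was not stated. Reads from a gene and from RNA of the opposite strand may therefore have been mixed in MT-ND6 and in all - strand tRNAs.

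Compared among themselves, the 13 mRNAs had log2 fold changes within 0.57 to 1.00, with SEs from 0.189 to 0.312, and neighbours in that order differed by less than 1 SE. Their median was 0.57, 0.84 and 0.90 in OFD1-depleted replicates 1, 2 and 3, each against the control mean. Across the 13, the Spearman correlation between log2 fold change and length was -0.32, with GC content -0.28 and with mean level 0.03, and across the 12 + strand mRNAs it was -0.27 with order on the genome. These describe genes that share a precursor and the same libraries, and no test was made.

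The mRNAs also differ in how they end, which is shown because it ties the reading frame to the poly(A) tail. In 6 of them (MT-ND1, MT-ND2, MT-CO3, MT-ND3, MT-ND4 and MT-CYB) the gene stops inside the last codon, and the tail is known to complete the stop codon. The other 7 end in a whole codon, which is AGA in MT-CO1 and AGG in MT-ND6. The last 15 bases of 4 genes are given on the strand of the gene, with the stop letters in capitals.
MT-ND2, ending at chrM:5511: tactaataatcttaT
MT-CYB, ending at chrM:15887: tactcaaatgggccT
MT-CO2, ending at chrM:8269: gtatttaccctaTAG
MT-CO1, ending at chrM:7445: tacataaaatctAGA

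Of the 6 mRNAs whose stop codon the tail completes, 4 rose, and all 6 had log2 fold changes from 0.77 to 0.92. Of the 7 with a whole last codon, 3 rose, and all 7 had log2 fold changes from 0.57 to 1.00. The ranges overlapped, and the difference between these kinds was not tested.

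The rRNAs were higher in OFD1-depleted samples by less than the mRNAs, and 0 of 2 passed the test, although both had an unadjusted p under 0.05 (limma). MT-RNR1, the small-subunit 12S rRNA (MT from 648 to 1601), had 745.1, 534.0 and 593.5 FPKM in control and 752.4, 935.1 and 790.9 FPKM in OFD1-depleted samples, with a log2 fold change of 0.41 (SE 0.166, limma adjusted p = 0.116). OFD1-depleted replicate 1 lay only just above control replicate 1. MT-RNR2, the large-subunit 16S rRNA (MT from 1671 to 3229), had 2451, 1784 and 2204 FPKM in control and 2869, 3089 and 3100 FPKM in OFD1-depleted samples, with a log2 fold change of 0.50 (SE 0.172, limma adjusted p = 0.0691). The ratio of summed + strand mRNA to summed rRNA was 12.8, 11.6 and 15.8 in control and 15.2, 15.7 and 17.4 in OFD1-depleted samples. These ranges overlapped, since control replicate 3 lay above OFD1-depleted replicates 1 and 2. The library step that removed rRNA or selected mRNA was not stated, so an rRNA level here is what that step left.

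The tRNA genes took 15.3%, 16.7% and 15.7% of the FPKM of the 37 genes in control and 13.3%, 14.3% and 12.6% in OFD1-depleted samples, while the mRNAs took 78.7%, 76.9% and 79.4% in control and 81.5%, 80.7% and 82.7% in OFD1-depleted samples. Neither share overlapped between groups. Weighted by gene length, which approximates fragments, the tRNA genes took 1.24% to 1.36% in control and 1.01% to 1.19% in OFD1-depleted samples. The mRNA share weighted in this way was 88.8%, 87.7% and 90.4% in control and 90.1%, 90.2% and 91.2% in OFD1-depleted samples, and here the groups overlapped. A value at a tRNA gene does not separate mature tRNA from precursors in which the tRNA is still joined to its neighbours. Of the 22 tRNA genes, 18 were higher and 4 lower in OFD1-depleted samples, 4 rose and 0 fell (limma), and 9 were higher and 0 lower at an unadjusted p under 0.05. Of all 12025 genes tested, 5564 were higher and 6461 lower without regard to the test. The 14 on the + strand had a median log2 fold change of 0.34 and the 8 on the - strand 0.31, and without control replicate 2 these were 0.18 and 0.12.

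Of the 4 tRNA genes that rose, MT-TS1 and MT-TD are neighbours on opposite strands and MT-TE and MT-TP lie on either side of MT-CYB. MT-TS1 (- strand, MT from 7446 to 7514), which follows MT-CO1 on the opposite strand, had 1959, 1582 and 2126 FPKM in control and 2949, 3647 and 3158 FPKM in OFD1-depleted samples, a log2 fold change of 0.79 (SE 0.177, limma adjusted p = 0.0109). MT-TP (- strand, MT from 15956 to 16023), the proline tRNA at the end of the genes, had 130.2, 104.0 and 137.1 FPKM in control and 181.4, 212.2 and 233.7 FPKM in OFD1-depleted samples, a log2 fold change of 0.76 (SE 0.152, limma adjusted p = 0.00601). Neither gene overlapped between groups, and MT-TP had the smallest adjusted p of the 37. MT-TE (- strand, MT from 14674 to 14742), for glutamate, had 203.9, 141.9 and 198.9 FPKM in control and 246.8, 326.5 and 283.0 FPKM in OFD1-depleted samples (0.66, limma adjusted p = 0.0221). MT-TD (+ strand, MT from 7518 to 7585), for aspartate, had 21.5, 19.4 and 24.1 FPKM in control and 26.8, 34.3 and 31.6 FPKM in OFD1-depleted samples (0.51, limma adjusted p = 0.0311), and both were separate between groups. The call of MT-TD was lost in 4 of the 6 fits that left out 1 sample. For orientation, MT-TP and MT-TE read 5′ to 3′ with the anticodon in capitals as follows.
MT-TP, chrM:15956-16023: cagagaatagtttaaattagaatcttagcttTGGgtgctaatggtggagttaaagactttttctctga
MT-TE, chrM:14674-14742: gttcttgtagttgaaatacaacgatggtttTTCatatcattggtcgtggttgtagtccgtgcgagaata

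**Figure D4:**
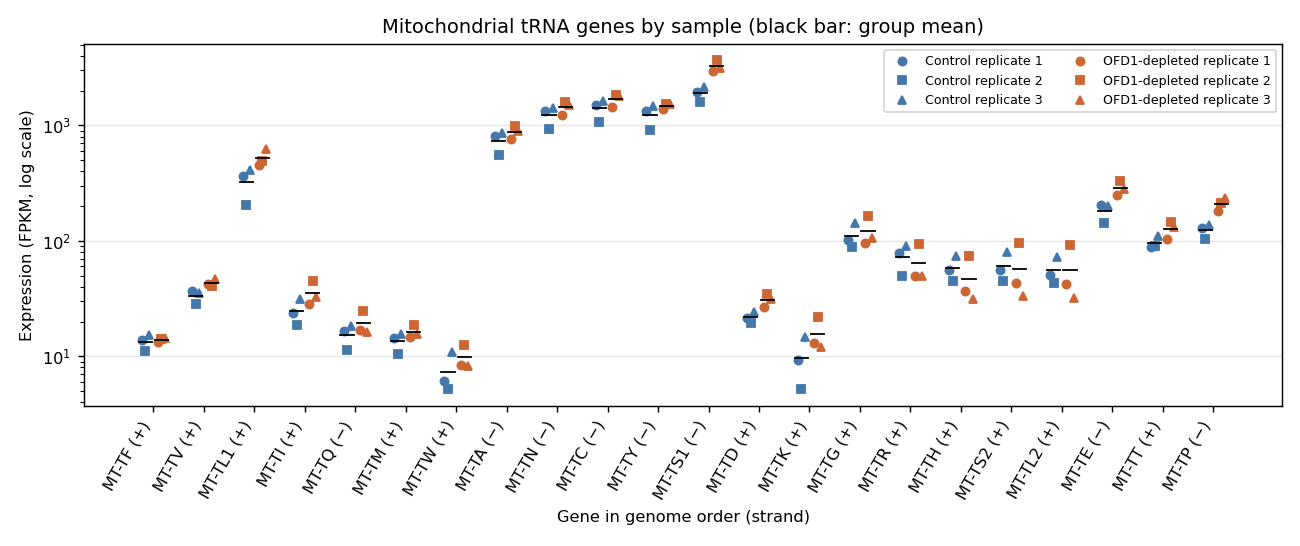
FPKM of the 22 tRNA genes is drawn for each sample on a log scale in genome order, with symbols for the replicate number and black bars for group means. Levels span from 5.18 FPKM (MT-TK) to 3647 FPKM (MT-TS1), the 5 highest genes are all on the - strand, and OFD1-depleted replicate 2 lies above its fellows at MT-TR, MT-TH, MT-TS2 and MT-TL2.

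The 5 + strand tRNA genes around MT-ND3 and between MT-ND4 and MT-ND5 went against the mRNAs in 2 of 3 OFD1-depleted samples. Their median log2 difference from the control mean was -0.44, 0.60 and -0.77 in OFD1-depleted replicates 1, 2 and 3. The 5 genes were grouped with their values known and the set was not tested, so this median only describes them. MT-TH, the histidine tRNA, had 56.2, 44.99 and 73.5 FPKM in control and 36.7, 73.5 and 31.3 FPKM in OFD1-depleted samples. OFD1-depleted replicates 1 and 3 were below every control sample and replicate 2 was at the top of the control range. The log2 fold change of MT-TH was -0.38 and did not pass the test (SE 0.281, limma adjusted p = 0.403). Without OFD1-depleted replicate 2 it was -0.75 (limma adjusted p = 0.0215), the only one of the 37 to be called lower in a fit that left out a sample.

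The next genes along the DNA had the same pattern. MT-TS2, a serine tRNA, had 56.3, 45.1 and 79.8 FPKM in control and 43.4, 95.2 and 33.1 FPKM in OFD1-depleted samples. MT-TL2, a leucine tRNA, had 50.8, 43.4 and 72.9 FPKM in control and 42.5, 91.7 and 31.9 FPKM in OFD1-depleted samples. In both, OFD1-depleted replicates 1 and 3 lay below all controls and replicate 2 above all controls. Their log2 fold changes were -0.19 and -0.12 and did not pass the test (limma adjusted p = 0.743 and 0.831). MT-TR, for arginine, had 78.3, 49.7 and 90.9 FPKM in control and 49.1, 93.2 and 50.02 FPKM in OFD1-depleted samples (-0.21, limma adjusted p = 0.641). MT-TG, for glycine, had 100.7, 88.3 and 141.2 FPKM in control and 96.1, 163.5 and 104.8 FPKM in OFD1-depleted samples (0.13, limma adjusted p = 0.733), and its direction turned under several alternatives. Control replicate 3 was the highest control for all 5 genes, so the same samples were high and low at separate places on the genome.

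RN7SL1, a nuclear-encoded RNA without a poly(A) tail, had 17.6, 5.48 and 7.76 FPKM in control and 6.44, 15.2 and 3.72 FPKM in OFD1-depleted samples. Of 9 such RNAs listed, RN7SL1, RN7SL2 and RN7SK were tested and 0 were called, also at an unadjusted p under 0.05 (limma). All 3 were highest in control replicate 1, whereas the highest control for the 5 tRNA genes was replicate 3. Among OFD1-depleted samples the 3 RNAs were highest in replicate 2, as the 5 tRNA genes and other tRNA genes were. Whether a difference between libraries in such RNAs enters the tRNA values was not tested.

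The 4 - strand tRNA genes between MT-ND2 and MT-CO1 were abundant and differed little between groups. MT-TC, for cysteine, had 1499, 1072 and 1629 FPKM in control and 1455, 1826 and 1785 FPKM in OFD1-depleted samples. MT-TN, for asparagine, had 1330, 923.1 and 1404 FPKM in control and 1236, 1603 and 1494 FPKM in OFD1-depleted samples. OFD1-depleted replicate 1 lay below control replicates 1 and 3 in both genes, so the groups overlapped. MT-TY, for tyrosine, had 1319, 915.9 and 1472 FPKM in control and 1373, 1515 and 1528 FPKM in OFD1-depleted samples. MT-TA, for alanine, had 800.3, 551.1 and 856.0 FPKM in control and 766.1, 981.3 and 894.1 FPKM in OFD1-depleted samples. The log2 fold changes of the 4 genes were 0.26 to 0.29, with limma adjusted p-values from 0.346 to 0.401, and their median was 0.08 without control replicate 2.

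Of the remaining 9 tRNA genes, none passed the test. MT-TL1, a leucine tRNA between MT-RNR2 and MT-ND1, was the most abundant + strand tRNA gene, with 363.1, 203.8 and 411.3 FPKM in control and 457.5, 489.4 and 618.2 FPKM in OFD1-depleted samples (0.73, limma adjusted p = 0.0581). MT-TV, which separates the rRNAs and also serves as a structural RNA of the mitochondrial ribosome, had 36.7, 28.3 and 35.1 FPKM in control and 42.6, 40.8 and 46.8 FPKM in OFD1-depleted samples (0.38, limma adjusted p = 0.0796). These 2 genes were separate between groups. The other 7 overlapped. MT-TT had a log2 fold change of 0.40 (87.6 to 110.8 FPKM in control, 104.6 to 144.1 in OFD1-depleted samples) and MT-TI 0.53 (18.5 to 31.4 and 28.6 to 44.9 FPKM). MT-TK had 0.76 (5.18 to 14.5 and 12.1 to 22.0 FPKM), MT-TW 0.45 (5.19 to 10.9 and 8.26 to 12.6 FPKM) and MT-TQ 0.33 (11.3 to 18.4 and 16.4 to 24.7 FPKM). MT-TM had 0.29 (10.5 to 15.6 and 14.7 to 18.5 FPKM), and MT-TF, the first gene after the promoter of the heavy strand, had 0.07 (11.1 to 15.2 and 13.2 to 14.5 FPKM). At the low levels of these genes other than MT-TT few fragments stand behind a value, while MT-TT had an estimated 222 to 419.

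Ratios within a sample do not depend on scaling, and the ratios of tRNA genes to nearby mRNAs differed in whether the groups overlapped. All but the strand ratio of MT-ND6 and the mRNA to rRNA ratio, with the mRNA set against each tRNA gene, were chosen after the values were seen, and none was tested. The level of MT-TS1 was 26.9%, 27.3% and 26.6% of that of MT-CO2 in control and 26.2%, 29.2% and 23.7% in OFD1-depleted samples. Against MT-CO1, which lies next to it, MT-TS1 was 22.2%, 26.1% and 22.4% in control and 26.9%, 32.0% and 23.7% in OFD1-depleted samples. MT-TL1 was 12.7%, 13.2% and 12.8% of MT-ND1 in control and 13.1%, 10.8% and 13.7% in OFD1-depleted samples. These ratios overlapped between groups, as did MT-TP to MT-CYB (6.60% to 8.84% against 6.96% to 7.05%) and MT-TE to MT-ND6 (16.6% to 22.0% against 17.9% to 18.5%).

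By contrast, MT-TC was 71.6%, 86.0% and 71.9% of MT-ND2 in control and 49.9%, 49.5% and 47.8% in OFD1-depleted samples, with no overlap. MT-ND2 lies on the other strand, is not adjacent to MT-TC and had the largest log2 fold change of the complex I mRNAs (0.92). MT-TA, MT-TN, MT-TC and MT-TY summed were 45.3%, 47.4% and 45.6% of MT-ND2 and MT-CO1 summed in control and 34.8%, 39.3% and 33.5% in OFD1-depleted samples. Every control value lay above every OFD1-depleted value in both ratios. MT-TH was 1.65%, 2.48% and 2.05% of MT-ND4 in control and 0.883%, 1.52% and 0.569% in OFD1-depleted samples. MT-TR was 6.41%, 4.997% and 6.86% of MT-ND3 in control and 2.91%, 3.69% and 2.47% in OFD1-depleted samples. MT-TG was 2.15%, 2.39% and 2.88% of MT-CO3 in control and 1.43%, 2.10% and 1.31% in OFD1-depleted samples. These 3 ratios were also lower in every OFD1-depleted sample, including replicate 2, in which the tRNA levels themselves were high. MT-TS2 to MT-ND4 (1.65% to 2.49% against 0.603% to 1.97%) and MT-TL2 to MT-ND5 (5.08% to 9.03% against 2.51% to 7.72%) overlapped. Summed over all 14 + strand tRNA genes, the ratio to + strand mRNA was 2.25%, 2.47% and 2.55% in control and 1.77%, 2.12% and 1.72% in OFD1-depleted samples, and over the 8 - strand tRNA genes it was 17.8%, 19.7% and 17.7% against 14.9%, 16.1% and 13.9%.

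**Figure D5:**
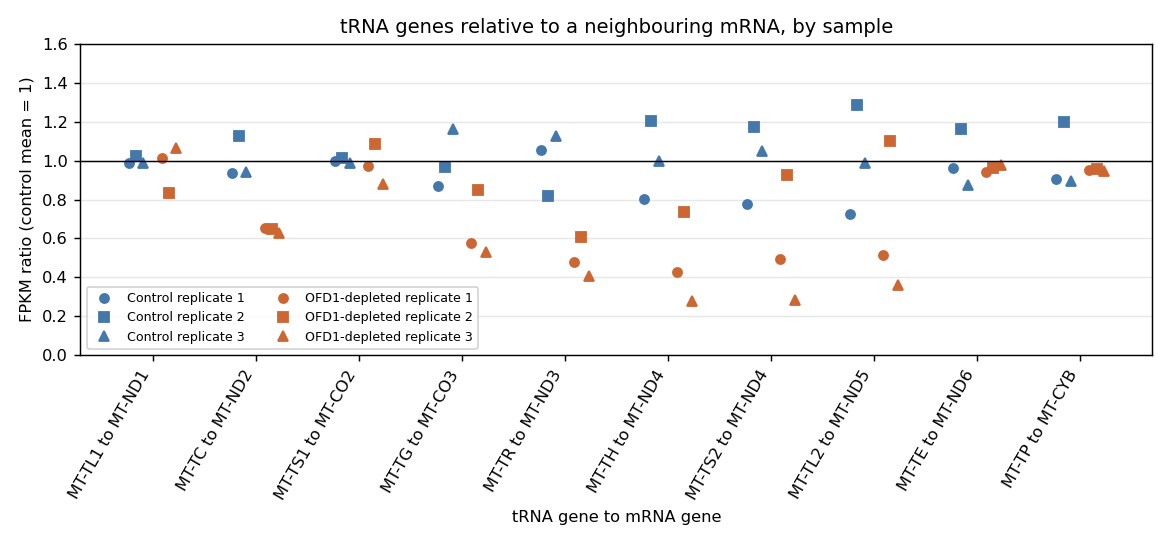
Points give, for each sample, the FPKM of a tRNA gene divided by that of a nearby mRNA, scaled so that the mean of the control samples is 1. OFD1-depleted samples lie below all controls for MT-TC, MT-TG, MT-TR and MT-TH, and among the controls for MT-TE and MT-TP.

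Nuclear DNA holds copies of parts of the mitochondrial genome that can share reads with it. Of 432 such copies matched by name, 32 were above 0 and 5 had a mean of at least 1 FPKM. These 5 lie side by side on chromosome 1, from 629062 to 634922. MTATP6P1 (633696 to 634376) differs from MT-ATP6 at 10 of 681 bases, had 16.2% to 17.3% of the FPKM of MT-ATP6 and rose by 0.91 in log2 units (limma adjusted p = 0.00961). MTND2P28 (629640 to 630683), 98.4% identical to MT-ND2, had 12.5% to 13.8% of its FPKM and rose by 0.94 in log2 units (limma adjusted p = 0.0161). The other 3, MTCO1P12, MTND1P23 and MTCO3P12, had at most 1.38% of the level of their mitochondrial gene. Since reads could be split between such pairs, the values of each are uncertain, but the sum of pair and copy had a log2 fold change of 0.91 for MT-ATP6, 0.92 for MT-ND2 and 0.57 for MT-CO1, as the mitochondrial gene had alone. All copies together had 1.76% to 2.10% of the FPKM of the 37 genes.

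Nuclear genes that work with the mitochondrial genome were compared in 11 lists. Of 252 tested, 8 rose and 8 fell (limma), shares below the 5.07% and 11.9% of all genes tested, and their median log2 fold change was 0.13. For genes that rose this order depended on the setting. The share of the lists lay above that of all genes with no filter, median-of-ratios scaling, quantile normalization or array weights. The calls of COX7C, DGUOK, TACO1, SUPV3L1, MRM2 and MRPL33 held in all 6 fits that left out 1 sample, and each of the other 10 was lost in at least 1 of them. The 74 nuclear subunits of complexes I, III, IV and V, partners of the 13 mitochondrial mRNAs, had a median of 62.4, 71.6 and 60.8 FPKM in control and 67.6, 92.6 and 70.8 FPKM in OFD1-depleted samples. These medians overlapped between groups, since OFD1-depleted replicates 1 and 3 lay below control replicate 2. The median of the mitochondrial mRNAs was 33.9, 17.4 and 37.3 times as high in control and 43.2, 39.8 and 52.7 times as high in OFD1-depleted samples, without overlap. Of 37 complex I subunits 32 were higher and 5 lower, with a median of 0.23, and of 37 subunits of complexes III, IV and V 33 were higher and 4 lower, with a median of 0.24. Most of these subunits did not pass the test. Among all 12025 genes tested, 5564 were higher and 6461 lower, with a median of -0.03. TPM scaling shifted this median by -0.145, so the counts and medians of the nuclear lists, here and below, depend on the scaling. Of the complex I subunits, NDUFA7 rose (0.57) and NDUFB8 fell (-0.56), and of the others UQCRC2 (0.48) and NDUFA4 (0.51) rose and COX7C fell. COX7C, a small subunit of cytochrome c oxidase, had 125.1, 136.8 and 119.9 FPKM in control and 13.2, 22.6 and 15.4 FPKM in OFD1-depleted samples, a log2 fold change of -2.93 (SE 0.181).

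Few genes of the machinery of mitochondrial DNA and RNA passed the test. Of 8 transcription genes 0 were called and 2 were higher at an unadjusted p under 0.05 (limma). POLRMT had 16.4, 17.6 and 17.9 FPKM in control and 21.8, 18.96 and 18.7 FPKM in OFD1-depleted samples, and differed by 0.19 in log2 units (limma adjusted p = 0.335). TFAM, which packages mitochondrial DNA, had 8.37, 9.61 and 7.50 FPKM in control and 9.30, 7.44 and 8.90 FPKM in OFD1-depleted samples (0.01, limma adjusted p = 0.974). TFB2M, which helps the polymerase open the promoter, had 8.16, 8.59 and 8.20 FPKM in control and 13.3, 10.9 and 9.84 FPKM in OFD1-depleted samples, without overlap (0.43, limma adjusted p = 0.0650). Of 12 genes of mtDNA replication and nucleotide supply, 2 fell, the helicase TWNK (-0.56) and the deoxyguanosine kinase DGUOK, which went from 35.6 ± 3.95 to 9.62 ± 2.46 FPKM (SD, n = 3 per group, -1.90). Of 5 regulators of biogenesis tested, 0 were called, with 1 higher and 1 lower at an unadjusted p under 0.05 (limma).

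Of 19 genes that process and degrade mitochondrial RNA, 1 rose and 1 fell, while 18 were higher and 1 lower without regard to the test (median 0.15). The counts over all genes tested were 5564 higher and 6461 lower. HSD17B10, a subunit of the RNase P that cuts tRNAs free at their 5′ ends, had 40.3, 46.7 and 45.8 FPKM in control and 62.5, 88.5 and 56.7 FPKM in OFD1-depleted samples, a log2 fold change of 0.62 (SE 0.167, limma adjusted p = 0.027). SUPV3L1, the helicase of the RNA-degrading complex with PNPT1, had 9.97, 11.0 and 10.7 FPKM in control and 7.02, 6.50 and 6.70 FPKM in OFD1-depleted samples, a log2 fold change of -0.64 (SE 0.129, limma adjusted p = 0.006). Neither overlapped between groups.

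Translation genes were called in both directions. Of 12 translation factors the recycling factor MRRF (0.63) and the elongation factor GFM1 (0.54) rose, and TACO1, an activator of translation of the MT-CO1 mRNA, fell (-1.82), with 19.5, 18.6 and 17.6 FPKM in control and 4.64, 5.98 and 5.07 FPKM in OFD1-depleted samples. Of 78 mitochondrial ribosomal proteins MRPL33 (0.69) and MRPS33 (0.62) rose and 0 fell, with 9 higher and 1 lower at an unadjusted p under 0.05 (limma). Without regard to the test 58 were higher and 20 lower (median 0.12), beside 5564 higher and 6461 lower over all genes tested. The alanyl-tRNA synthetase AARS2 (-0.61) was the only one of 21 charging enzymes called, and the rRNA methyltransferase MRM2 (-0.96) the only one of 7 rRNA modification genes. Of 16 tRNA modification genes 0 were called and 2 were higher at an unadjusted p under 0.05 (limma).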

How the data were processed

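RNA-seq of 3 control and 3 OFD1-depleted samples was used, grouped by the labels. By the methods, the authors made NEBNext directional libraries and sequenced 150 bp paired ends, aligned to the Ensembl reference (GRCh38, version 94) with HISAT2 (2.0.5 by the submitters' processing notes), and deposited FPKM values from StringTie (version not given in the sources used here). No counts were used. Values were tested as log2(FPKM + 0.1) in genes that averaged 1 FPKM or more by limma 3.58.1 (R 4.3.3) with a variance trend, two-sided, with Benjamini-Hochberg adjustment over all 12025 genes, so fold changes understate the change of low genes. Exact two-sided permutation tests of the members could not go below p = 0.1 with 3 samples in each group. The script was tested on simulated data, and no sample duplicated another.

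Depth was read off low values of single-exon genes, 17.5% to 23.6% of which lay within 0.02 fragment of a whole multiple, so it is approximate and entered no test. It sets the precision of the low tRNA genes. Positions in the table matched GENCODE version 44 for 37 of 37 genes, and sequences were read from the GRCh38 mitochondrial sequence. An anticodon was taken as the one place between bases 19 and 41 where its letters follow a T. Identities of nuclear copies came from alignments of GRCh38 sequence. Python 3.11.15, pandas 2.3.3, numpy 2.4.6 and scipy 1.17.1 were used.

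The members, the gene lists and the sets of tRNA genes were chosen with earlier results of these data known. All 37 members are given, with up to 3 called genes per direction of each other list, and OFD1. The settings varied were the pseudocount (1 or 0.01), the filter (none, or 5 FPKM), the scaling (TPM, median-of-ratios, quantile, or the same total without the 37 genes), limma's trend (none) and array weights, and 1 fit with a replicate block and 6 that each left out 1 sample. Replicate numbers come from the labels.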

Additional observations from a re-analysis of the deposited data

How the results depend on the processing

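The 37 genes were few among those tested, and their count of calls moved with the setting. Calls numbered 0 with no filter, 5 with quantile normalization, 21 with array weights (19 higher and 2 lower, MT-TR and MT-TH), and from 3 to 13 with 1 sample left out. Over all genes, 2039 calls (610 higher and 1429 lower) became 1083 with no filter (260 higher and 823 lower). They became 3956 with array weights (1693 higher and 2263 lower), and ranged from 1111 to 2818 with 1 sample left out. With quantile normalization 5 of the 37 rose, while more genes rose over all genes than in the main fit. The shares that rose therefore lay closer together under that scaling. With TPM scaling, or without OFD1-depleted replicate 3, fewer genes rose over all genes than in the main fit. The nuclear lists had 16 calls (8 higher and 8 lower), against 8 with no filter (3 higher and 5 lower). They had 25 with median-of-ratios scaling (19 higher and 6 lower) and 35 with quantile normalization (28 higher and 7 lower). Array weights gave 57 (42 higher and 15 lower), and TPM scaling gave 13 (2 higher and 11 lower). With 1 sample left out they had from 6 to 28 (28 without OFD1-depleted replicate 2, 6 without control replicate 1, 7 without control replicate 3). The rRNA median fell to 0.042 with quantile normalization, which fixes values by rank. Summed FPKM ran from 408302 to 414547 in control and from 433262 to 493510 in OFD1-depleted samples, highest in OFD1-depleted replicate 2. TPM scaling, which makes these sums equal, shifted the overall median log2 fold change by -0.145 and left 10 of the 37 called. It lowered the medians over mRNAs, rRNAs and tRNAs from 0.78, 0.46 and 0.31 to 0.64, 0.31 and 0.16. Genes higher at an unadjusted p under 0.05 (limma) went from 23 to 16 of the 37. Directions turned for MT-RNR2 (-0.087), MT-CO1 (-0.13), MT-TA (-0.007) and MT-TN (-0.004) with quantile normalization, for MT-TF (-0.076) and MT-TG (-0.017) with TPM scaling, and for MT-TG with array weights (-0.043). With 1 sample left out, MT-TF ranged from -0.057 (without control replicate 2) to 0.17, MT-TG from -0.10 (without OFD1-depleted replicate 2) to 0.32, MT-TS2 from -0.63 to 0.13 and MT-TL2 from -0.56 to 0.20, the last 2 turning without control replicate 3 or OFD1-depleted replicate 3. The cause of these turns was not tested. Of 629 values of the 37 genes under alternatives, 552 kept direction and side of the threshold and 63 kept direction only. Same-numbered samples correlated at 0.011 to 0.058 in their deviations from the group means, against -0.08 to 0.05 for samples of other numbers. In all, 4 of 6 samples correlated best with their own number. These small values do not settle whether the numbers pair samples, and the main fit did not pair them. With the replicate block 19 of the 37 were called.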
